A study of Mus musculus with 6 samples.

Results

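Complement is a chain of blood and tissue proteins that tags damaged cells and microbes and calls in phagocytes. In the classical pathway, C1q recognises the target and its partner proteases cut C4 and C2, which together form the enzyme that cuts C3. In the alternative pathway factor B takes the place of C2, and the small fragments released from C3 and C5 act on cells through the receptors C3ar1 and C5ar1. In injured muscle, macrophages are a known source of C1q and carry both receptors, and complement activation is known to help recruit them. Expression of 9 complement genes was examined by RNA sequencing of regenerating mouse tibialis anterior. They were the C1q chains C1qa, C1qb and C1qc, the components C2, C4b, C3 and Cfb (factor B), and the receptors C3ar1 and C5ar1. The members were chosen by name and found by symbol through their Ensembl identifiers, and all 9 of 9 were present among the 52369 genes of the deposited table of FPKM (fragments scaled to gene length and to library depth).

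The 6 libraries came from C57BL/6 mice aged 6 weeks. The L7 group (3 libraries) is labelled Linc-smad7 overexpression, Linc-smad7 being a long non-coding RNA, and the Control group (3 libraries) is labelled control. All 6 muscles, Control included, had received cardiotoxin, a venom toxin used to injure muscle fibres (50 µl at 10 µM, at 5 weeks of age). All had then been given repeated injections of 6.25 µg of a pcDNA3.1 plasmid with an in vivo transfection reagent, and were taken on day 7, per the labels. What the Control plasmid carried, which cells took the plasmid up, and whether each library is 1 animal are not stated in the labels, so p-values measure only the spread between these libraries. The overexpressed RNA was not analysed here.

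Reads in genes numbered 19420012 to 24663153 per library. L7 replicate 3 stood apart, with a correlation over genes of 0.920 to 0.951 with the other libraries, which correlated at 0.979 to 0.989 with each other. Its 10 muscle fibre markers, of 10 tested, were at their highest of 6 libraries and summed to 100200 FPKM, against 34154 and 36726 in the other L7 libraries and 22278 to 31142 in Control libraries. In L7 replicate 3, 63.2% of all genes were at their lowest, and so were 17 of 18 macrophage and monocyte markers, led by Lyz2 and Ctss. The 18 markers summed to 6704, 5367 and 2641 FPKM in L7 replicates 1, 2 and 3, and to 5743, 4841 and 7575 FPKM in Control replicates 1, 2 and 3. Y-linked genes had 3185 to 4184 reads in L7 replicate 1 and Control replicates 1 and 3 and at most 2 reads in the others, so the groups were not balanced for sex. Of 7 hepatocyte markers, Ttr, Fgb and Serpina1a were at 0 in all libraries and the 7 summed to at most 0.618 FPKM, so liver RNA, a rich source of complement transcripts, was at or near 0.

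In FPKM as deposited, the C1q chains and C3 were the most abundant members, and Cfb was hardly expressed. C1qa averaged 757 FPKM over the 6 libraries, which placed it 88th of the 14788 genes with a mean of at least 1 FPKM. C1qc (608 FPKM) was 125th, C1qb (593 FPKM) 131st and C3 (299 FPKM) 301st. C3ar1 (58.8 FPKM), C5ar1 (45.9 FPKM) and C4b (45.4 FPKM) formed a middle group, followed by C2 (6.13 FPKM) and Cfb (1.14 FPKM). The ranges over libraries overlapped between neighbours in this order from C1qa to C3 and from C3ar1 to C4b. They did not overlap between C3 and C3ar1, between C4b and C2 or between C2 and Cfb. FPKM is per length, but the lengths behind the deposited values are not given. For C1qc, C3, C4b, C2, Cfb and C5ar1 the recovered reads imply lengths shorter than the annotated exon bases. In L7 replicate 1, C3 had 12303 reads at 333 FPKM (5143 exon bases). C3ar1 had 7176 reads at 75.2 FPKM there (4305 exon bases). The order of the members and the gap between C3 and C3ar1 therefore depend on those lengths.

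All 9 members lie on the minus strand (mm10, gene models of GENCODE M21). C1qb (chr4:136880129-136886187), C1qc (chr4:136889804-136893065) and C1qa (chr4:136895917-136898803) lie side by side within 18675 bases of chromosome 4. Cfb (chr17:34856374-34862518) and C2 (chr17:34862604-34898265) are 85 bases apart on chromosome 17, which also holds C4b (chr17:34728380-34743882) and C3 (chr17:57203970-57228136). C3ar1 (chr6:122847138-122856161) and C5ar1 (chr7:16246743-16259540) are on chromosomes of their own. The predicted gene Gm20547, a joint C2 and Cfb model, covers 79.5% of the exon bases of Cfb and 42.8% of those of C2, and was listed at 0 in all 6 libraries. The levels of Cfb and C2 therefore depend on how the counting treated reads in shared exons, which no source used here gives. C4b has a closely similar neighbour, C4a, so their split is uncertain, and C4b shares 34.6% of its 50-base windows and 15.2% of its 100-base windows of transcript sequence with it. C4a had 94 reads in the L7 libraries and 126 in the Control libraries, against 7462 and 6178 for C4b.

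The promoters of the pairs C1qb with C1qc and C3ar1 with C5ar1 are shown because each pair shares a role, as chains of C1q and as fragment receptors, and its genes had similar profiles over the libraries. The root mean square differences were 0.032 and 0.113 in log2(FPKM + 1), after subtracting the mean of each gene. Other member pairs, such as C1qa with C1qc (0.087), were closer than the receptors. C1qc with Cfb was at 0.062, but this scale understates the changes of a gene as low as Cfb. The sequences are the 250 bases before each RefSeq start (GRCm38.p6, minus strand, 5′ to 3′). The RefSeq and GENCODE starts differ. The windows of C1qc and C5ar1 lie partly inside the GENCODE gene spans, which end at chr4:136893065 and chr7:16259540. Capitals mark an exact match to GAGGAAGT, taken as the core site of PU.1, a transcription factor of myeloid cells.
C1qb, chr4:136886201-136886450: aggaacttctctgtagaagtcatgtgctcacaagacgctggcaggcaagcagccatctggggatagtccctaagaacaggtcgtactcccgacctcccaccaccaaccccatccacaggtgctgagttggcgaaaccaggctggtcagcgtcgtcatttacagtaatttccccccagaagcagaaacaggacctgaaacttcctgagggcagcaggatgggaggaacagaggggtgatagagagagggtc
C1qc, chr4:136892915-136893164: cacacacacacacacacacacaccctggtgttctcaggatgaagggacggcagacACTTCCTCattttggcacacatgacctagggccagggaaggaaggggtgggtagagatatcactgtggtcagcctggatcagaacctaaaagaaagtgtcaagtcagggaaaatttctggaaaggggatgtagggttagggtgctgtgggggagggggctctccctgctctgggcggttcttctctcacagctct
C3ar1, chr6:122856158-122856407: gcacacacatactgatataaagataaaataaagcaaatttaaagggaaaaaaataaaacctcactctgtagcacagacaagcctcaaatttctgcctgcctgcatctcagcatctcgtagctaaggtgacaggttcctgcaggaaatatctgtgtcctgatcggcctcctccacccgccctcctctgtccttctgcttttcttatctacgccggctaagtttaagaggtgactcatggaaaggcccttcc
C5ar1, chr7:16259339-16259588: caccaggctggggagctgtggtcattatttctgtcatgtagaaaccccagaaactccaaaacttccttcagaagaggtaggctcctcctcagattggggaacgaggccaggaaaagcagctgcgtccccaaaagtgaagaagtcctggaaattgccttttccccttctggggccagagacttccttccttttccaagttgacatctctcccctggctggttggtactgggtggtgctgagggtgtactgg

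Of the 9 members, 5 (these 4 and C3) matched an entry of the RefSeq promoter table, whose windows run from 250 bases before to 50 after the start. Searched on both strands, the string GAGGAAGT, taken as the PU.1 core, was found once. It lay on the reverse strand at position -195 from the RefSeq start of C1qc, and 3.20% of all 32851 windows hold it. Variants of this string were not searched for, so PU.1 sites of other sequence are not excluded. The gamma-activated site TTCNNNGAA (8.30% of windows) and the interferon-stimulated element (3.44% of windows) were not in the 5 member windows. With a single match, none overlapped.

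The design asks whether Linc-smad7 overexpression changed complement expression in injured muscle, and none of the 9 genes passed the test between the groups. In limma on log2(FPKM + 1), adjusted over all 14788 tested genes, 0 of 9 members passed an adjusted p of 0.05, where 0.0% of all genes did. At an unadjusted p under 0.05 there were also 0 of 9 members, against 5.9% of all genes (4.25% lower and 1.65% higher in L7), and limma voom on reads recovered from the FPKM values called 0 of 9. The lowest adjusted p of a member was 0.580. Log2 differences were negative for 7 of 9 members, against 70.8% of all genes, and their median was -0.13, against -0.15 over all genes. Median of ratios scaling, which centres the genes, moved the median over all genes to -0.0029 and the share of negative differences to 50.4%. With it C1qa, C1qb, C1qc and Cfb turned to small positive differences, so that 3 of 9 members (C2, C3ar1 and C5ar1) stayed negative. The authors' deposited table marked 0 of the 9 members, where it marked 1.13% of the genes it tested. Log2 fold changes in the authors' deposited table ran from -0.245 for C3ar1 to 0.535 for C4b, with 0.131 for C1qa and -0.197 for C2. The deposited table's Gene Ontology term for complement activation had a corrected p of 1.0, and the 2 marked genes of its 161 were the immunoglobulin segments Ighv1-4 and Ighv9-3, not members. Its term for complement receptor activity also had a corrected p of 1.0, with 1 marked gene of 11, Fpr2, lower in L7 and not a member.

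**Figure D1:**
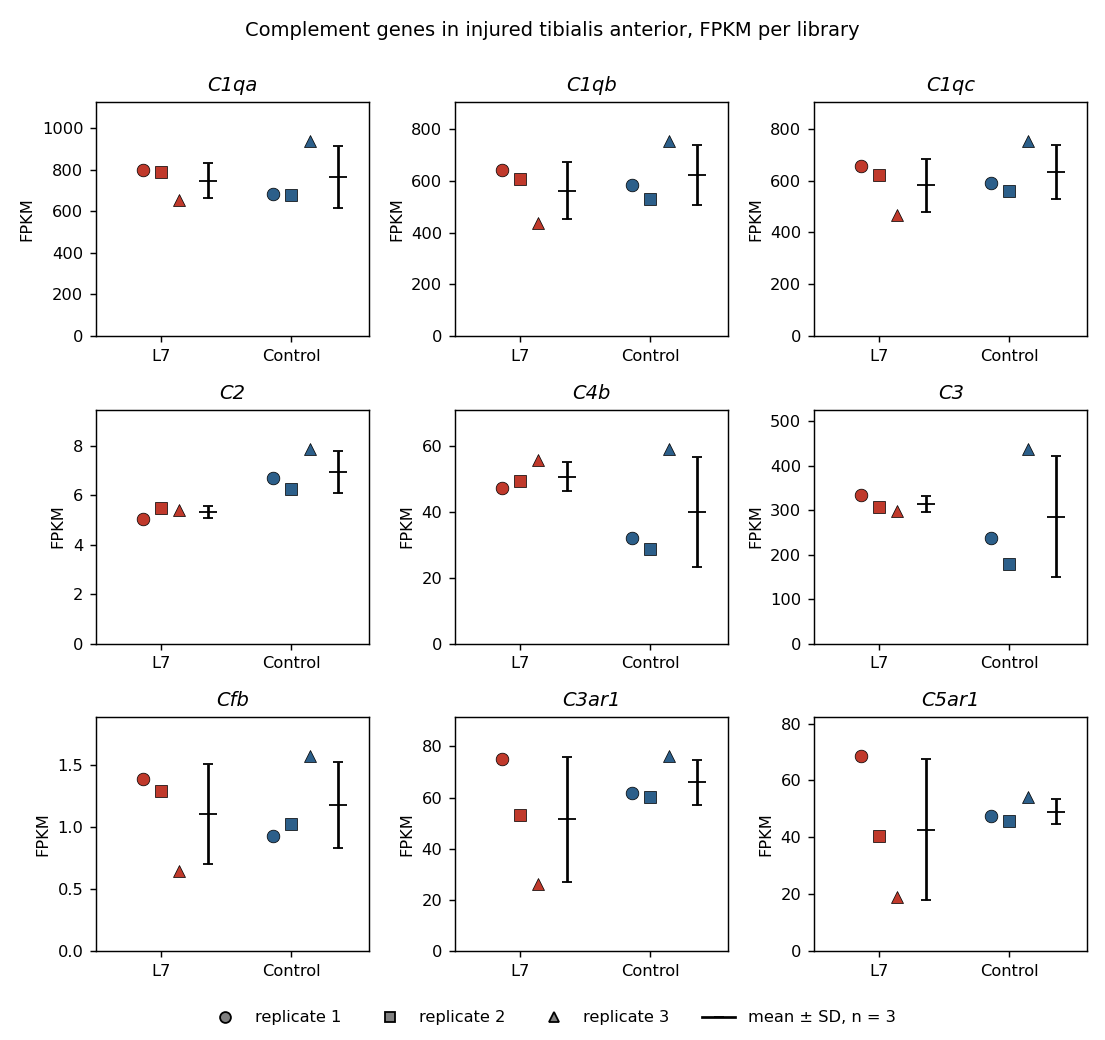
FPKM of the 9 complement genes in each library, L7 (red) and Control (blue), with a marker shape for each replicate number and the mean ± SD of 3 libraries beside the points. The groups overlap in 8 panels, and in the C2 panel the L7 libraries (5.02 to 5.50 FPKM) all lie below the Control libraries (6.25 to 7.88 FPKM), which they do not on the median of ratios scale.

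The C1q chains, which assemble into the recognition protein of the classical pathway, had overlapping levels in L7 and Control muscle. C1qa had 799.9, 792 and 653 FPKM in L7 libraries, against 682, 677 and 939 FPKM in Control libraries. C1qb had 644, 609.5 and 438 FPKM in L7 libraries, against 583, 531 and 756 FPKM in Control libraries. C1qc had 656, 623 and 466 FPKM in L7 libraries, against 592, 558 and 753 FPKM in Control libraries. For each chain L7 replicate 3 was the lowest library and Control replicate 3 the highest, and the other 4 libraries lay between them, those of L7 above those of Control. On the median of ratios scale L7 replicate 3 was no longer the lowest library for any chain. The means were 748 ± 82.5 FPKM in L7 and 766 ± 150.1 FPKM in Control libraries for C1qa, the A chain (SD, n = 3 each). They were 564 ± 110.4 and 623 ± 118 FPKM for C1qb, the B chain, and 582 ± 102 and 634 ± 104 FPKM for C1qc, the C chain, with L7 first (SD, n = 3 each).

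The log2 difference of C1qa was -0.02 ± 0.21 (SE), with a limma adjusted p of 0.959 and a 95% interval of 0.696 to 1.39 in fold on the log2(FPKM + 1) scale. For C1qb it was -0.15 ± 0.23 (adjusted p 0.741, 0.618 to 1.32 in fold) and for C1qc -0.13 ± 0.22 (adjusted p 0.760, 0.642 to 1.30 in fold). These intervals leave room for a change of about the size of their bounds in either direction. The signs rested on the scaling, as above, and on single libraries. Without L7 replicate 3 the differences were 0.07, 0.02 and 0.02 for C1qa, C1qb and C1qc. Without Control replicate 3 they were 0.13, -0.0017 and 0.0010. The 3 chains together took 0.224%, 0.216% and 0.166% of the reads in L7 replicates 1, 2 and 3, and 0.198%, 0.188% and 0.261% in Control replicates 1, 2 and 3.

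The proportions of the chains also overlapped between the groups. The ratio of C1qc to C1qb was 1.02, 1.02 and 1.06 in L7 libraries, against 1.01, 1.05 and 0.996 in Control libraries (exact permutation test of the log2 ratio of FPKM + 1, two-sided p = 0.5, adjusted over 4 ratios 0.5). The ratio of C1qa to C1qb was 1.24, 1.30 and 1.49 in L7 libraries, against 1.17, 1.28 and 1.24 in Control libraries (exact permutation p = 0.2, adjusted 0.4). It was highest in L7 replicate 3, and the groups overlapped. With 3 libraries against 3 the smallest p this test can give is 0.1. After subtracting the mean of each gene, the log2(FPKM + 1) profile of C1qb differed from that of C1qc by a root mean square of 0.032 over the 6 libraries, while the median over 8026 genes of at least 10 FPKM was 0.252. The 2 chains were not each other's closest profiles. Diaph1, a formin that nucleates actin filaments, ranked just ahead of C1qc for C1qb (0.032), and Sipa1 ranked ahead of C1qb for C1qc (0.029).

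C2, the serine protease that joins C4 in the classical enzyme that cuts C3, was the member with groups that did not overlap in FPKM as deposited, and it was lower in L7. It had 5.02, 5.50 and 5.42 FPKM in L7 libraries, against 6.69, 6.25 and 7.88 FPKM in Control libraries. The means were 5.31 ± 0.253 FPKM in L7 and 6.94 ± 0.84 FPKM in Control libraries (SD, n = 3 each), a ratio of 0.765. This made 1 of 9 members with L7 wholly below Control, where 13.7% of all genes were, so such a count is near the background. On the median of ratios scale the C2 groups overlapped, with 4.84, 5.34 and 6.99 FPKM in L7 libraries against 6.10, 5.92 and 7.66 FPKM in Control libraries, and the log2 difference was -0.17. The log2 difference was -0.33 ± 0.15 (SE), and the limma p was 0.0662 unadjusted and 0.580 adjusted. C2 rested on 406 reads in L7 and 544 reads in Control libraries, and its difference was negative in all 17 alternatives, from -0.39 to -0.14. All 13 measured genes of the interferon gamma response list, led by Cxcl10 and Iigp1, had negative differences, with a median of -0.998. In limma 12 of 13 were at an unadjusted p under 0.05 and 0 of 13 passed the adjusted threshold. The list was chosen with earlier results of these data known, so these counts are not independent of the data. Over all genes 70.8% had negative differences and 4.25% were lower at an unadjusted p under 0.05. The 13 genes summed to 978, 1489 and 847 FPKM in L7 libraries and to 2743, 1578 and 2869 FPKM in Control libraries. The log2 differences of Cfb, the neighbour of C2, and of C4b were -0.05 and 0.40. The part of the interferon gamma response in the values of C2 or of any other member was not tested.

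C3, the central protein on which the pathways converge, and C4b, which C1 cuts to start the classical enzyme, had higher means in L7 but overlapping groups. C3 had 333, 307 and 298 FPKM in L7 libraries, against 237, 179.7 and 438 FPKM in Control libraries. C4b had 47.2, 49.4 and 55.7 FPKM in L7 libraries, against 32.2, 28.6 and 59.2 FPKM in Control libraries. In FPKM as deposited, the L7 libraries lay close together in both genes, above Control replicates 1 and 2 and below Control replicate 3. The coefficient of variation of C3 was 5.75% in L7 and 47.7% in Control libraries, and that of C4b was 8.69% in L7 and 41.8% in Control libraries. On the median of ratios scale it was 13.5% in L7 and 50.5% in Control libraries for C3, and 26.5% in L7 and 44.8% in Control libraries for C4b. There C4b in L7 replicate 3, at 71.9 FPKM, lay above Control replicate 3, at 57.6 FPKM.

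C3 averaged 313 ± 18.0 FPKM in L7 and 285 ± 136 FPKM in Control libraries (SD, n = 3 each), and its log2 difference was 0.23 ± 0.31 (SE; adjusted p 0.707 in limma). C4b averaged 50.7 ± 4.41 FPKM in L7 and 40.0 ± 16.7 FPKM in Control libraries (SD, n = 3 each), and its log2 difference was 0.40 ± 0.27 (SE; adjusted p 0.580 in limma). Both values turned on single Control libraries. Without Control replicate 3 the difference was 0.60 ± 0.21 (SE) for C3 (limma p of 0.0264 unadjusted and 0.692 adjusted) and 0.72 ± 0.17 (SE) for C4b (limma p of 0.00491 unadjusted and 0.692 adjusted). Without Control replicate 2 they were -0.04 for C3 and 0.21 for C4b. The ratio of C4b to C3 was 0.142, 0.161 and 0.187 in L7 libraries, against 0.136, 0.159 and 0.135 in Control libraries, with overlapping groups (exact permutation p = 0.3, adjusted over 4 ratios 0.4). The gene of at least 10 FPKM closest in profile to C3 was Oser1 (root mean square difference 0.085), which was second for C4b (0.124) after Clec10a, a lectin of macrophages and dendritic cells (0.089).

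Cfb, the protease of the alternative pathway, was close to the lower limit of the test. It had 1.39, 1.29 and 0.645 FPKM in L7 libraries, against 0.927, 1.03 and 1.57 FPKM in Control libraries, and the groups overlapped. These values rested on 54, 47 and 24 reads in L7 and on 34, 35 and 68 reads in Control libraries. The means were 1.11 ± 0.404 FPKM in L7 and 1.18 ± 0.347 FPKM in Control libraries (SD, n = 3 each), and the log2 difference was -0.05 ± 0.22 (SE; adjusted p 0.903 in limma). The ratio of Cfb to its neighbour C2 was 0.276, 0.235 and 0.119 in L7 libraries, against 0.139, 0.164 and 0.199 in Control libraries. It had no common direction, with L7 libraries at both ends of the range (exact permutation p = 0.3, adjusted over 4 ratios 0.4). The test added 1 FPKM to each gene, which matters at the level of Cfb, and with 0.1 FPKM added the exact permutation p was 0.5.

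The receptors C3ar1 and C5ar1, which bind the fragments C3a and C5a, varied widely among the L7 libraries. C3ar1 had 75.2, 53.1 and 26.5 FPKM in L7 libraries, against 61.8, 60.2 and 76.2 FPKM in Control libraries. C5ar1 had 68.5, 40.5 and 19.2 FPKM in L7 libraries, against 47.4, 45.7 and 54.2 FPKM in Control libraries. L7 replicate 3 was the lowest library for both receptors, while L7 replicate 1 was the highest for C5ar1 and next to the highest for C3ar1. The coefficient of variation of C3ar1 was 47.3% in L7 and 13.4% in Control libraries, and that of C5ar1 was 57.9% in L7 and 9.13% in Control libraries, the opposite order to C3 and C4b. On the median of ratios scale it was 36.3% in L7 and 16.2% in Control libraries for C3ar1, and 48.2% in L7 and 11.8% in Control libraries for C5ar1. C3ar1 averaged 51.6 ± 24.4 FPKM in L7 and 66.1 ± 8.83 FPKM in Control libraries, and C5ar1 averaged 42.7 ± 24.8 FPKM in L7 and 49.1 ± 4.48 FPKM in Control libraries (SD, n = 3 each).

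The log2 difference was -0.46 ± 0.35 (SE) for C3ar1, with a limma adjusted p of 0.582, and -0.37 ± 0.40 (SE) for C5ar1, with an adjusted p of 0.657. Without L7 replicate 3 they were -0.05 and 0.10. Without L7 replicate 1 they were -0.79 for both, with unadjusted p of 0.0339 and 0.0364 and an adjusted p of 0.387 for each. The receptors moved with each other, with a root mean square difference of 0.113 between their profiles. The closest profiles of at least 10 FPKM were those of Zeb2 (0.047) and Adap2 (0.049) for C3ar1, and of Ptafr (0.082), the receptor of platelet-activating factor, and Cd68 (0.092), a macrophage lysosomal protein on the marker list, for C5ar1. In bulk tissue, fewer cells of a type and less RNA per cell cannot be told apart.

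**Figure D2:**
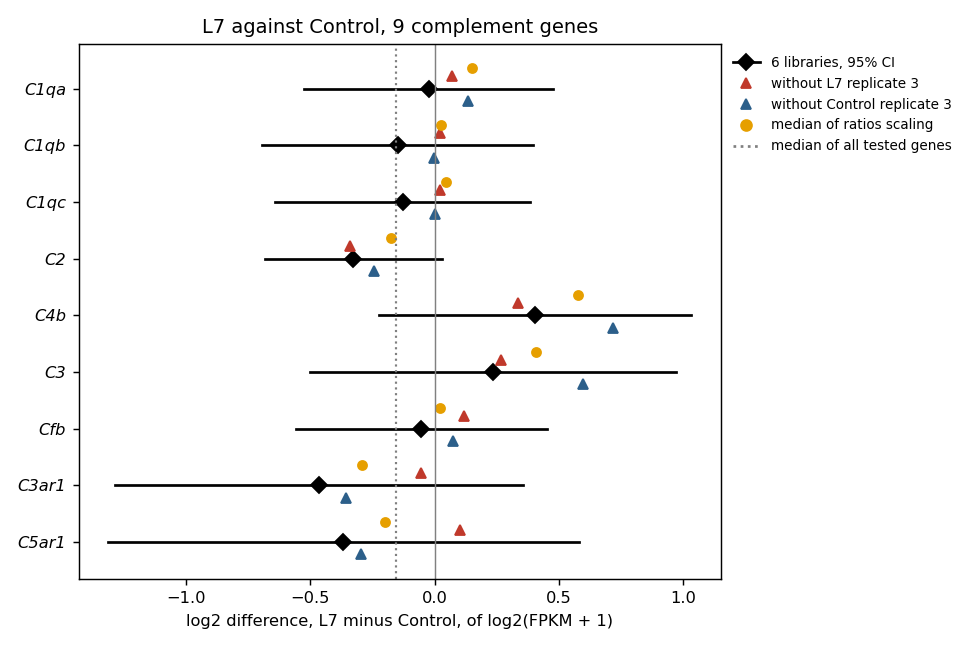
Log2 difference, L7 minus Control, of the 9 complement genes from 6 libraries (black diamonds, with 95% confidence intervals), without L7 replicate 3 (red triangles), without Control replicate 3 (blue triangles) and after median of ratios scaling (orange points), with the median of all tested genes as a dotted line. Every interval crosses 0, and C3ar1 and C5ar1 move to -0.05 and 0.10 without L7 replicate 3, while C3 and C4b move to 0.60 and 0.72 without Control replicate 3.

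The members also differed in single libraries. In FPKM as deposited, L7 replicate 3 had 0.352 times the mean of the other L7 libraries for C5ar1 and 0.412 times for C3ar1. It had 0.482 times for Cfb, 0.698 times for C1qb, 0.728 times for C1qc and 0.821 times for C1qa. For C3 it had 0.933 times, for C2 1.03 times and for C4b 1.15 times. The median over all tested genes was 0.740 and the summed macrophage and monocyte markers stood at 0.438. The receptors were thus near the macrophage markers, C1qb and C1qc near the median gene, and C1qa, C3, C2 and C4b above it. Cfb also stood near the macrophage markers, but it had only 24 reads in L7 replicate 3, against 54 and 47 in L7 replicates 1 and 2. The part of macrophage content in these values was not tested.

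Control replicate 3 had 2.10 times the mean of the other Control libraries for C3 and 1.95 times for C4b. It had 1.61 times for Cfb, 1.38 times for C1qa, 1.36 times for C1qb and 1.31 times for C1qc. The ratio was 1.25 for C3ar1, 1.22 for C2 and 1.16 for C5ar1, against a median over all genes of 0.977. It was the highest of 6 libraries for 8 of 9 members, against 20.4% of all genes, with C5ar1 the exception. The summed macrophage and monocyte markers stood at 1.43 there, with 12 of 18 at their highest, and their part in the member values was not tested. L7 replicate 3 was the lowest library for 6 of 9 members, against 63.2% of all genes, and on the median of ratios scale for 3 of them, Cfb, C3ar1 and C5ar1.

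**Figure D3:**
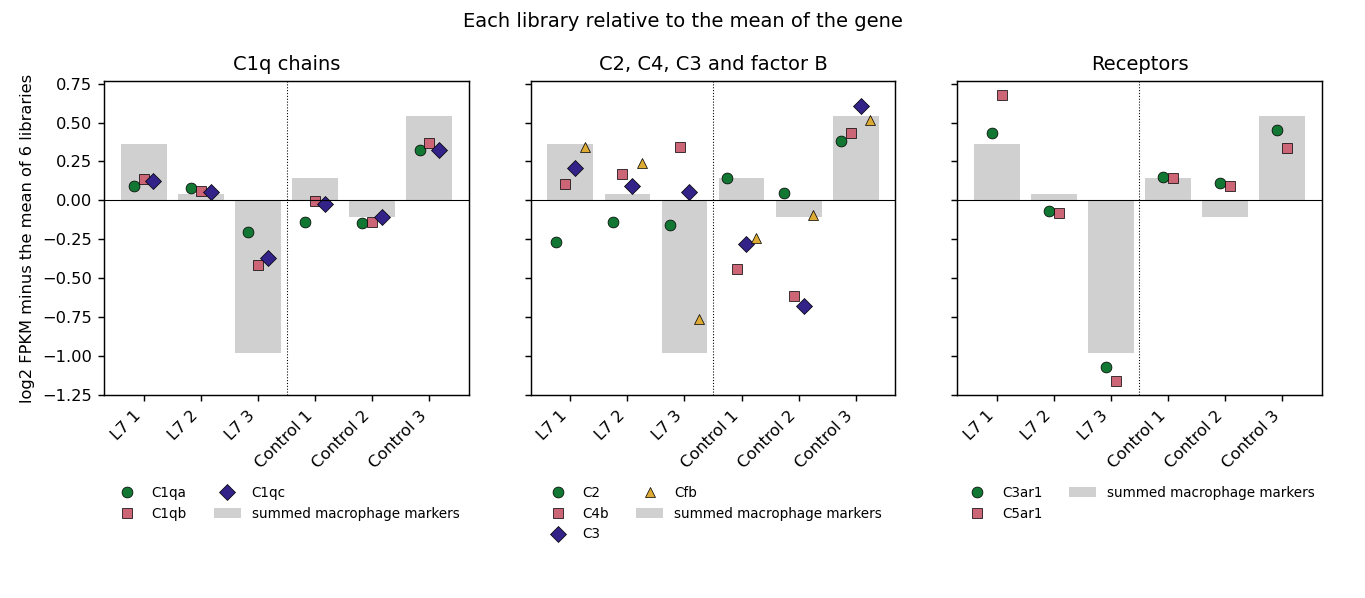
Log2 FPKM of each complement gene in each library, minus the mean of the gene over 6 libraries (points), with the summed FPKM of 18 macrophage and monocyte markers on the same scale (grey bars). C3ar1 and C5ar1 stand as low as the markers in L7 replicate 3, the C1q chains less low, and C4b and C3 above their means there.

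The rest of the complement system was read from lists of 49 further genes, all present in the table, of which 24 reached a mean of 1 FPKM. Of these, 0 passed limma in either direction, where 0.0% of all genes did. At an unadjusted p under 0.05, 2 were higher (against 1.65% of all genes) and 0 lower (against 4.25%), and voom also called 0. Differences were positive for 9 and negative for 15 of 24 (against 70.8% negative over all genes), with a median of -0.08, against -0.15 over all genes. L7 lay wholly above Control in 1 gene (against 5.49% of all genes) and wholly below in 2 (against 13.7%). Only genes that reached 1 FPKM entered these counts.

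Of 14 other genes of the classical and lectin pathway start (C1 proteases, lectins, their proteases and C4a), 4 reached a mean of 1 FPKM and all had overlapping groups. C1s1, the C1 protease that cuts C4 and C2, was at 94.2 ± 5.74 FPKM in L7 and 103 ± 9.43 FPKM in Control libraries, and C1ra, which activates it, was at 31.2 ± 1.08 FPKM in L7 and 31.1 ± 3.60 FPKM in Control libraries (SD, n = 3 each). The scavenger collectin Colec12 was at 16.0 ± 4.88 FPKM in L7 and 18.3 ± 3.01 FPKM in Control libraries (SD, n = 3 each). The mannose-binding lectins Mbl1 and Mbl2 were listed at 0 in all libraries.

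Of 9 other alternative and terminal pathway genes, 3 were measured. Cfp, the gene of properdin, which stabilises the alternative enzyme, was at 292, 162 and 117 FPKM in L7 libraries, against 205, 162 and 287 FPKM in Control libraries. Like C5ar1 it was at its lowest in L7 replicate 3 and at its highest in L7 replicate 1, and its log2 difference was -0.26 ± 0.36 (SE; adjusted p 0.710 in limma). Cfd, the factor D protease made by adipocytes, had 2.06, 3.66 and 7.37 FPKM in L7 libraries, against 0.213, 1.66 and 2.12 FPKM in Control libraries. Its difference was 1.19 ± 0.46 (SE) with overlapping groups and a limma p of 0.0357 unadjusted and 0.580 adjusted. The measured adipocyte markers were Fabp4 and Adipoq, with positive differences of 0.35 and 0.83 (Adipoq groups did not overlap). The adipocyte markers summed to 53.8, 40.7 and 70.96 FPKM in L7 and to 43.2, 41.9 and 36.1 FPKM in Control libraries. Most of each sum was Fabp4 (48.1, 38.5 and 66.9 FPKM in L7 and 42.6, 40.5 and 34.4 FPKM in Control libraries). Adipoq had 3.20, 1.21 and 1.55 FPKM in L7 libraries, highest in L7 replicate 1, where Cfd was the lowest of the L7 libraries. The part of adipocyte content in the Cfd values was not tested. C8g was at 3.30 ± 0.376 FPKM in L7 and 3.64 ± 0.160 FPKM in Control libraries (SD, n = 3 each). The other terminal components, Hc (C5), C6, C7, C8a, C8b and C9, stayed below 1 FPKM in every library.

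Regulators, which hold complement off host cells, were measured for 9 of 16 genes, 5 with positive and 4 with negative differences. Serping1, the C1 inhibitor, was the most abundant at 298 ± 13.6 FPKM in L7 and 313 ± 51.7 FPKM in Control libraries (SD, n = 3 each), with overlapping groups. Cd55, or decay accelerating factor, named after its values were seen, had 18.6, 19.2 and 25.5 FPKM in L7 libraries, against 11.8, 15.1 and 13.5 FPKM in Control libraries. The groups did not overlap on either scale, the log2 difference was 0.60 ± 0.18 (SE), and the limma p was 0.0101 unadjusted and 0.580 adjusted. Cr1l, or Crry, the rodent inhibitor of the C3-cutting enzymes, had 29.4, 27.6 and 23.5 FPKM in L7 libraries, against 34.4, 29.6 and 33.6 FPKM in Control libraries. In FPKM as deposited the groups did not overlap, but they did on the median of ratios scale (28.3, 26.8 and 30.3 FPKM in L7 libraries, against 31.3, 28.1 and 32.6 FPKM in Control libraries), with a difference of -0.27 ± 0.15 (SE) and an adjusted p of 0.580. Clu, clusterin, was at 34.7, 45.3 and 83.0 FPKM in L7 libraries, against 23.7, 25.3 and 67.7 FPKM in Control libraries, and like C3 it was high in Control replicate 3.

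Of 8 measured other receptors and C1q-binding proteins, 7 were lowest in L7 replicate 3, as were C3ar1 and C5ar1 and 63.2% of all genes. Itgb2, the beta chain of the complement receptors CR3 and CR4, was at 123 ± 61.7 FPKM in L7 and 150.3 ± 43.5 FPKM in Control libraries (SD, n = 3 each). Lrp1, an uptake receptor, was at 415 ± 188 FPKM in L7 and 459 ± 27.0 FPKM in Control libraries (SD, n = 3 each). Calr, calreticulin, a C1q-binding chaperone, had 441, 477 and 224 FPKM in L7 libraries, against 514, 508 and 582 FPKM in Control libraries, so that the groups did not overlap, also on the median of ratios scale. Its difference was -0.56 ± 0.30 (SE), with a limma adjusted p of 0.580.

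**Figure D4:**
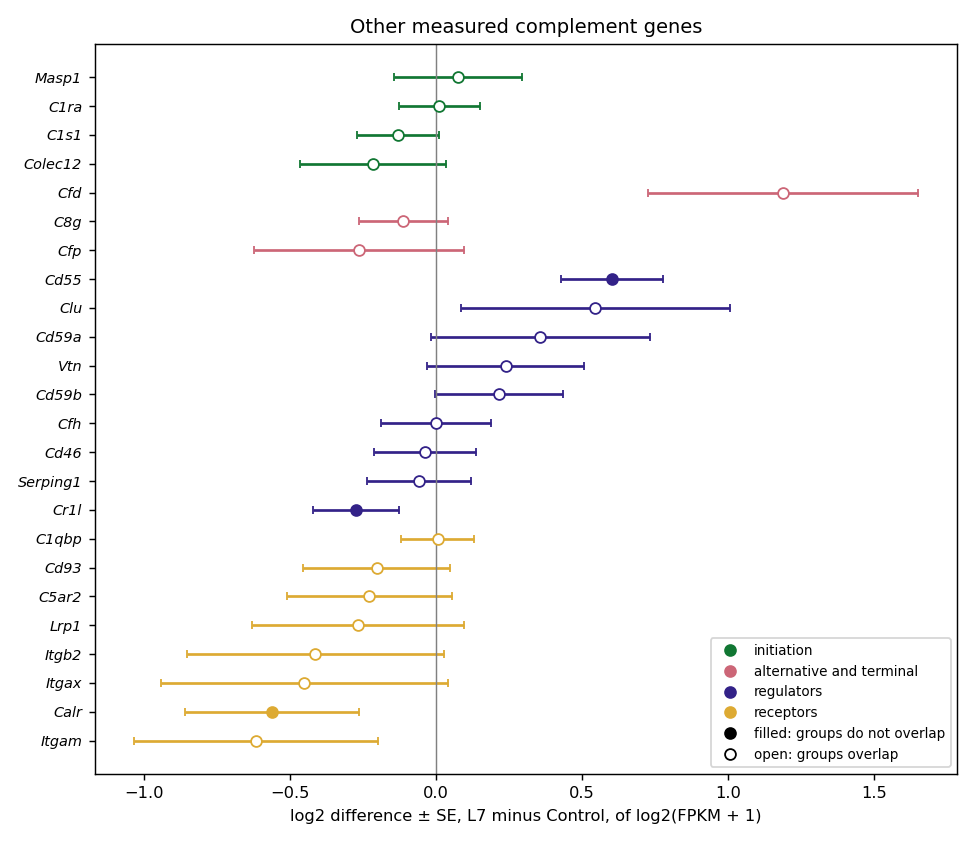
Log2 difference ± SE, L7 minus Control, of the 24 other complement genes with a mean of at least 1 FPKM, by role, with filled points where the groups do not overlap. Cd55 (0.60) lies wholly above Control, Cr1l (-0.27, overlapping on the median of ratios scale) and Calr (-0.56) wholly below, and no gene passes limma over all genes.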

How the data were processed

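RNA from 6 muscles was sequenced after poly-T bead selection, per the labels' protocols. The authors deposited FPKM for 52369 genes in 6 libraries. They also deposited a comparison with mean signal per group (normalised read counts), log2 fold changes and p-values, per the file headers, and Gene Ontology terms with p-values. The submitters' processing notes name mm10, DESeq 1.12.0, HISAT2 2.0.4, TopHat2 2.0.12 and Bowtie2 2.2.3, with no role for each. No source used here gives the counter, annotation or strand setting.

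Symbols were matched for 51633 genes (GENCODE M21). Reads were recovered from the FPKM steps and the deposited signal, and 152096 of 152096 values above 0 (100.0%) came within 0.05 of a whole number. Values of log2(FPKM + 1) were tested two-sided in limma (version 3.58.1 in R 4.3.3, trend option) over 14788 genes with a mean of at least 1 FPKM, with Benjamini-Hochberg adjustment. The scale understates changes of low genes. The code was tested on simulated data. Ratios had exact permutation tests of the log2 ratio of FPKM + 1 (scipy 1.17.1).

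The members and lists were chosen with earlier results of these data known. The rule for named genes took all members, the 3 most abundant genes of each other complement list, the 2 profiles closest to a member, and the 2 most abundant markers of a list, of which those that bear on a result are printed. Cd55 and genes at or near 0 were named after their values were seen. Alternatives were other pseudocounts (0.1, 10), filters (none, 5 FPKM), scalings, weights, a replicate block, sex, voom and leaving out each library.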

Additional observations from a re-analysis of the deposited data

How the results depend on the processing

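No member passed an adjusted p of 0.05 in any of 17 alternatives, the lowest being 0.387 (C3ar1 and C5ar1, without L7 replicate 1). Of 152 member values, 125 kept their sign and 27 turned. C2 stayed negative and C4b positive throughout. With median of ratios scaling, which lifts L7 replicate 3 (factor 0.774, others 1.03 to 1.10), C1qa, C1qb, C1qc and Cfb had differences of 0.15, 0.026, 0.047 and 0.024. With quantile normalization C1qa and Cfb had 0.019 and 0.068, and with sex as a covariate 0.043 and 0.020. With array weights C1qa, C1qb, C1qc, Cfb and C5ar1 had 0.14, 0.076, 0.070, 0.16 and 0.042, and 3 genes of the table were called. With that scaling and L7 replicate 3 left out, C1qa, C1qb, C1qc, Cfb and C5ar1 had 0.10, 0.055, 0.055, 0.13 and 0.14, and 1 gene was called. Leaving out 1 library at a time gave -0.10 to 0.13 for C1qa, -0.26 to 0.023 for C1qb, -0.22 to 0.023 for C1qc, -0.15 to 0.12 for Cfb, -0.79 to 0.10 for C5ar1, -0.045 to 0.60 for C3, and 0 to 1 called genes. The cause of these changes was not tested. Cfb has no value with a mean of at least 5 FPKM.

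Deviations of same-numbered libraries from their group means correlated over genes at 0.322, -0.0652 and 0.0871, not above 0.1 in every pair, so the numbers were not taken to pair the libraries. A replicate block left every difference as it was and called 0 genes, with adjusted p of 0.504 for C2 and C4b. Depth limits Cfb (24 to 68 reads) and C2 (133 to 232 reads).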

Other observations

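The other marker lists, given as summed FPKM in L7 and then Control replicates 1, 2 and 3, show the cellular setting of the complement genes. Neutrophil markers, led by S100a8 and S100a9, summed to 303, 158 and 51.7 in L7 and to 271, 166 and 266 in Control libraries. S100a8 and S100a9 were highest in L7 replicate 1, Csf3r and Cxcr2 in Control replicate 3, and Retnlg in L7 replicate 3. Mast cell markers, led by Cma1 and Mcpt4, summed to 17.6, 16.4 and 71.7 in L7 and to 27.2, 25.6 and 21.1 in Control libraries. T and NK cell markers, led by Gzmb and Nkg7, summed to 98.8, 117 and 71.4 in L7 and to 148, 105 and 197 in Control libraries. Fibro-adipogenic markers, led by Col1a1 and Col3a1, endothelial, dendritic and B cell markers had summed levels that overlapped between the groups. None of these lists had a member that passed limma over all genes, and at an unadjusted p under 0.05 the T and NK list had 2 lower members and the mast cell and fibro-adipogenic lists 1 lower member each, where 4.25% of all genes were lower.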
